A study of Mus musculus with 12 samples.

Results

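Tandem-pore domain potassium (K2P) channels are the subject here, as the 8 genes Kcnk1, Kcnk2, Kcnk3, Kcnk4, Kcnk10, Kcnk12, Kcnk13 and Kcnk18. They were taken by symbol from 55416 gene identifiers measured by bulk RNA sequencing of mouse trigeminal ganglia. All 8 passed the filter on low counts that left 16637 genes for testing. Adult C57Bl6 mice were studied 1 month after injection, with 6 inducible knockouts (iKO) and 6 controls. All iKO animals were Rosa26Cre ERT2; Fl/Fl, with both Prdm12 alleles floxed and a tamoxifen-activated recombinase driven from the widely expressed Rosa26 locus, so deletion was not limited to neurons. All received tamoxifen. Control 1 was Rosa26Cre ERT2; Fl/+, controls 2 and 3 were +/+; Fl/+ and control 4 was Rosa26Cre ERT2; +/+, all with tamoxifen. Controls 5 and 6 shared the genotype of the iKO animals but were injected with corn oil. Females numbered 3 in the iKO group and 2 among controls, and males 3 and 4.

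K2P channels pass potassium at rest and so help to set the resting membrane potential and the current needed to fire a neuron. Each subunit carries a pair of pore-forming loops, and a channel is made of a pair of subunits. The family falls into groups by what opens the channels: stretch, warmth and lipids for TREK and TRAAK, outside acidity closing TASK, and calcium through the phosphatase calcineurin for TRESK. In sensory ganglia TRESK, TREK and TRAAK channels are known for damping the excitability of neurons that sense pain, heat and cold, and the TRESK gene has been linked to migraine.

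The upstream windows of Kcnk1 and Kcnk10 are shown because these were the members whose iKO and control values did not overlap, in opposite directions. Each is the 250 bases before an annotated start in RefSeq on GRCm38.p6, an older build than the GRCm39 to which the reads were aligned. Capitals mark matches to CANNTG, the E-box letters, or to GGGCGG or its reverse complement, the GC-box letters. The Kcnk1 window is chr8:125994852-125995101 on the plus strand and the Kcnk10 window chr12:98575128-98575377 on the minus strand. Neither overlaps an annotated exon in GENCODE M21.
Kcnk1: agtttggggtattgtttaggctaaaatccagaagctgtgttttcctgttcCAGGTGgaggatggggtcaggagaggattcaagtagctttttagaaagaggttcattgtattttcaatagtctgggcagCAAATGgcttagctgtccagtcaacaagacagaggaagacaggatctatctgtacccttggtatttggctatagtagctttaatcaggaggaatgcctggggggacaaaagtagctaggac
Kcnk10: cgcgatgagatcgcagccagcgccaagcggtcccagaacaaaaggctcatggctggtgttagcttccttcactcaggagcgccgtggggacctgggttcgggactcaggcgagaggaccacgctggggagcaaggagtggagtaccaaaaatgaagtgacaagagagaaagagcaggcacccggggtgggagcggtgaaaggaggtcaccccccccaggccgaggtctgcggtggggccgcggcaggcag
The Kcnk1 window held 2 CANNTG matches, no GGGCGG match and 0 CpG dinucleotides, at 44.4% GC. The Kcnk10 window held neither motif, 16 CpG dinucleotides and 64% GC. Of 32851 such windows of 250 bases, 66.2% held CANNTG and 32.7% held GGGCGG on either strand. The window of a second annotated start of Kcnk10, which overlaps an exon of the gene and is not printed, held 1 GGGCGG match, 4 CpG dinucleotides and 50% GC. The windows of the other members are not printed.

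Libraries held 13207526 to 24178970 counts, of which 2918 to 5596 fell in the 8 members. Prdm12, the deleted gene, measured 106 ± 28.4 CPM (SD, n = 6) in controls and 16.7 ± 1.97 CPM in iKO, with no overlap (log2 fold change -2.64; edgeR adjusted p = 2.7e-05). CPM, a count scaled to library size and TMM factor, is the unit of all levels below. Control 6 had the lowest control value of Prdm12, 56.8 CPM, and the highest summed markers of brain glia, macrophages and satellite glia. Summed markers of sensory neurons, which check the tissue, ran from 11692 to 14500 CPM in controls and from 12198 to 14647 CPM in iKO. In bulk tissue, fewer cells of a type and less RNA per cell cannot be told apart.

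No member passed the threshold between iKO and control in the comparison of all 12 libraries (edgeR's quasi-likelihood test, Benjamini-Hochberg adjusted p under 0.05), where 0.379% of all genes did. Kcnk1, with a log2 fold change of 0.17, had the higher mean in iKO. Kcnk2, Kcnk10, Kcnk13 and Kcnk18 had the lower mean, with log2 fold changes of -0.38, -0.25, -0.56 and -0.36. In 2 members, Kcnk1 and Kcnk10, the groups did not overlap, as in 1.20% of all genes. These 5 had an unadjusted p under 0.05, against a background of 10.9% of genes (1 member higher, against 4.90%, and 4 lower, against 6.00%). Kcnk3, Kcnk4 and Kcnk12 had log2 fold changes between -0.02 and 0.07. With DESeq2, 3 members were called over the same libraries, Kcnk1 higher and Kcnk2 and Kcnk10 lower, where DESeq2 called 2.04% of the 16297 genes it gave an adjusted p. With limma-voom 0 members were called. The median log2 fold change of the members was -0.14, beside 0.00 over all genes tested.

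**Figure D1:**
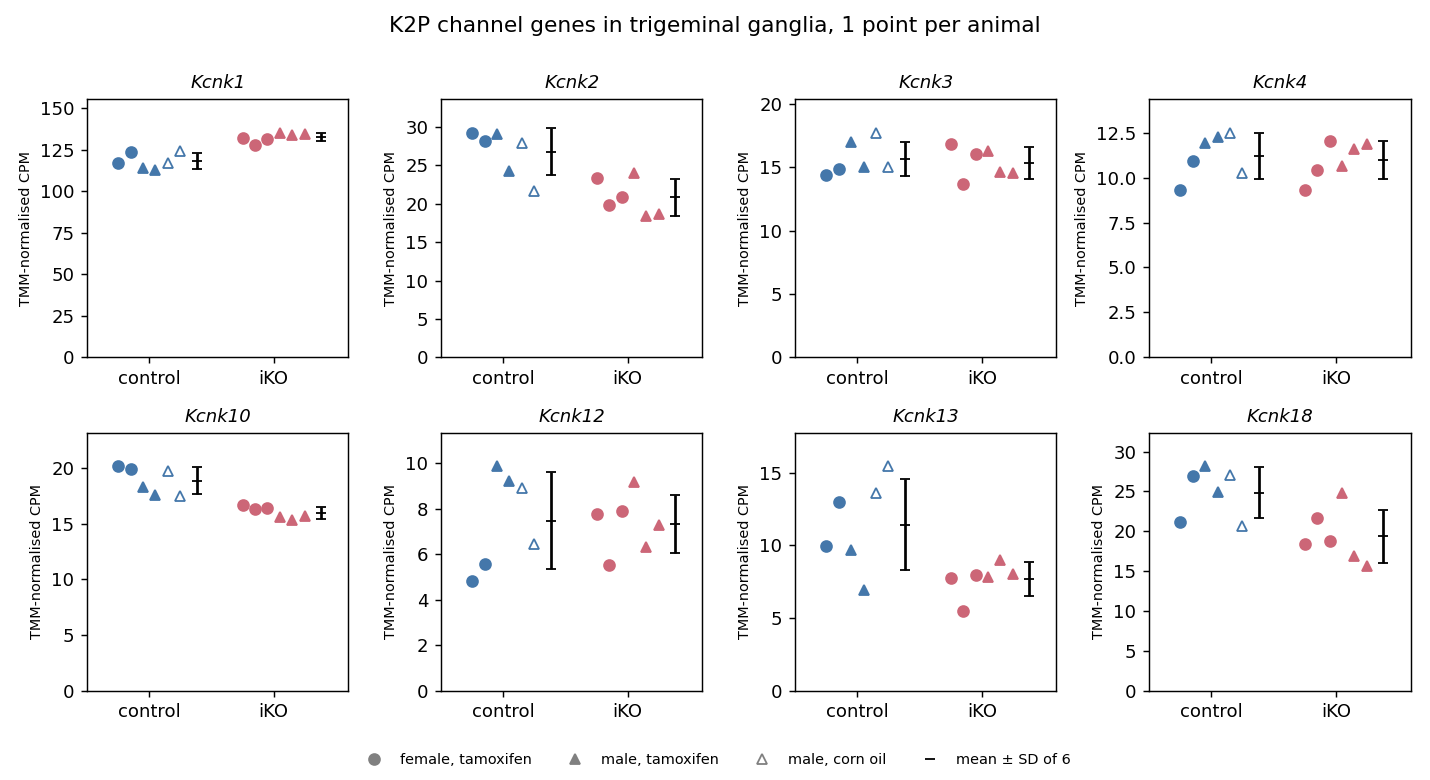
TMM-normalised CPM (vertical axes from 0) of the 8 K2P genes by group, with 1 point per animal, circles for females, triangles for males, open triangles for males given corn oil, and bars for the mean ± SD of 6. The iKO points of Kcnk1 all sit above the controls and those of Kcnk10 all below, and the other 6 genes overlap.

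Kcnk1 encodes TWIK1, a weak inwardly rectifying leak channel whose current is kept low by sumoylation and by retrieval from the membrane. It measured 112 CPM at the lowest, 117 at the median and 124 at the highest in controls. In iKO the lowest was 128, the median 133 and the highest 135 CPM. Every iKO library was above every control, and the gap between the groups ran from 124 CPM in control 6 to 128 CPM in iKO 2. Values of iKO lay wholly above those of control in 0.679% of all genes. The log2 fold change was 0.17 ± 0.038 (SE), a 1.12-fold difference, with a 95% interval of 0.09 to 0.25 and an adjusted p of 0.0862 in edgeR. DESeq2 gave an adjusted p of 0.00111, the only 1 of 21 alternatives to call it, and the others ran up to 0.207. Kcnk1 varied least among members, with a coefficient of variation of 4.12% in controls and 1.91% in iKO. In the GRCm38 annotation 8.0% of its exonic bases are shared with Gm45875 on the other strand, and the libraries do not keep strand.

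The stretch- and heat-sensitive channels came next. Kcnk2 encodes TREK1, opened by stretch, warmth, inside acidity and polyunsaturated fatty acids and closed by Gq- and Gs-coupled receptors. Its control values ran from 21.7 CPM in control 6 through a median of 28.1 to 29.3, and its iKO values from 18.4 through 20.4 to 24.1 CPM. In 4 of 6 iKO libraries the value was below every control, while iKO 1 and iKO 4 lay between control 6 and the other controls. Its log2 fold change was -0.38 ± 0.09 (95% interval -0.57 to -0.18; edgeR adjusted p = 0.102). Without control 6, which was the lowest control for this gene, it was -0.42 and passed the threshold (edgeR adjusted p = 0.0482), and without iKO 4, the highest iKO library, it was -0.45 (edgeR adjusted p = 0.0488). DESeq2 over all 12 libraries gave an adjusted p of 0.0122. In the other 18 of 21 alternatives Kcnk2 did not pass, with an edgeR adjusted p of up to 0.246 (without iKO 6). A430027H14Rik on the other strand shares 12.2% of the exonic bases of Kcnk2.

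Kcnk10 encodes TREK2, the closest relative of TREK1, with similar openers. Controls ran from 17.5 through a median of 19 to 20.2 CPM, and iKO from 15.3 through 16 to 16.7 CPM. All 6 iKO libraries were below all 6 controls, as in 0.523% of all genes. The log2 fold change was -0.25 ± 0.051 (95% interval -0.36 to -0.14; edgeR adjusted p = 0.0562). It was the member with the smallest p, at rank 78 of 16637 genes. Its adjusted p was 0.0492 without control 6, 0.0473 when genes under a mean of 1 CPM were dropped, and 0.018 with DESeq2. In the other 18 of 21 alternatives it did not pass, with an adjusted p of up to 0.153 when another library was left out (control 2) and 0.223 with no filter. By sex, it measured 20 ± 0.18 CPM (n = 2) in control females and 16.5 ± 0.19 (n = 3) in iKO females. In males it measured 18.3 ± 1.07 (n = 4) in controls and 15.5 ± 0.17 (n = 3) in iKO. Groups that stand apart over all libraries must also do so within each sex, so this adds no evidence.

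Kcnk4 encodes TRAAK, a channel opened by stretch and arachidonic acid that sits at the nodes of Ranvier of myelinated axons. It measured 9.31 to 12.5 CPM in controls (median 11.4) and 9.32 to 12 CPM in iKO (median 11.1). The ranges were nearly the same, and the log2 fold change was 0.00 with a 95% interval of -0.19 to 0.19 (edgeR adjusted p = 0.999). That interval excludes a difference as large as the mean differences of Kcnk2 and Kcnk10 in the same libraries, although the difference between these genes was not tested. Kcnk4 shares 13.1% of its exonic bases with Catsperz on the same strand, so reads there cannot be assigned to 1 of the genes.

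Kcnk18 encodes TRESK, which calcineurin switches on when calcium rises and which is found mainly in sensory ganglia. Control values were 20.6 CPM at the lowest (control 6), 25.9 at the median and 28.2 at the highest (control 3). In iKO they were 15.6 at the lowest (iKO 6), 18.6 at the median and 24.8 at the highest (iKO 4). The groups overlapped, with 4 of 6 iKO libraries below every control and iKO 2 and iKO 4 inside the control range. Its log2 fold change was -0.36 ± 0.12 (95% interval -0.62 to -0.10; edgeR adjusted p = 0.27), and leaving out 1 library gave -0.47 to -0.29. It was never called over 12 libraries under any alternative run, with adjusted p from 0.119 to 0.534. The genes most like Kcnk18 over the 12 libraries were Polr2m (Pearson r = 0.956), Prmt8 (0.956) and Plxna4 (0.942) among 14078 named genes whose mean was 1 CPM or more. None of these 3 was called between the groups, and all values come from the same libraries and groups.

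The sum of 12 nociceptor markers ran from 3307 to 4008 CPM in controls and from 3097 to 3743 CPM in iKO. Among them Scn10a, a sodium channel of nociceptors, at -0.22 and Calca, which encodes the peptide CGRP, at -0.23 did not pass in edgeR (log2 fold changes). Both were called in DESeq2. Others went the other way, Tac1 (0.20), Trpa1 (0.14), P2rx3 (0.07) and Scn11a (0.02), and none of these passed in edgeR or DESeq2. At an unadjusted p under 0.05 in edgeR, 1 of the 12 was higher and 5 lower, against 4.90% and 6.00% of all genes. The median log2 fold change of the 12 was -0.15. None of 12 general sensory neuron markers passed in edgeR, DESeq2 or limma-voom, and their median log2 fold change was 0.00. Of these 12, 1 had an unadjusted p under 0.05, against 10.9% of all genes. The part of neuron types in the values of Kcnk2, Kcnk10 and Kcnk18 was not tested.

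Kcnk3 encodes TASK1, closed by outside acidity and opened by volatile anaesthetics. It ran from 14.4 through 15 to 17.7 CPM in controls and from 13.7 through 15.3 to 16.9 CPM in iKO. The groups overlapped almost wholly, with a log2 fold change of -0.02 (95% interval -0.19 to 0.14; edgeR adjusted p = 0.946). Gm9899 on the other strand shares 5.8% of its exonic bases. TASK1 is also made in vascular mural cells, whose 10 markers summed to 219 to 259 CPM in controls and 200 to 289 CPM in iKO.

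Kcnk13 and Kcnk12 encode THIK1 and THIK2, halothane-inhibited channels. THIK1 is the main resting potassium channel of microglia, and THIK2 gives little current on its own. Kcnk13 ran from 6.89 through 11.5 to 15.4 CPM in controls and from 5.45 through 7.87 to 8.96 CPM in iKO. Its controls were widely spread, with control 4 inside the iKO range and control 6, control 5 and control 2 highest at 15.4, 13.6 and 13 CPM. The log2 fold change was -0.56 ± 0.18 (95% interval -0.95 to -0.17; edgeR adjusted p = 0.254), the largest in size among the 8 members. Without controls 2 and 6 it was -0.35 (edgeR adjusted p = 0.592), and over tamoxifen-injected animals only it was -0.36 (edgeR adjusted p = 0.666). The 10 markers of macrophages and microglia summed to 200 to 352 CPM in controls, highest in controls 6 and 2, and to 194 to 250 CPM in iKO. Other libraries did not follow that order. Control 5 had a sum of 233 CPM, and iKO 2, the lowest library in Kcnk13, had the highest sum of the iKO group. None of these 10 passed in edgeR, DESeq2 or limma-voom. At an unadjusted p under 0.05, 3 were lower, against 6.00% of all genes, among them Tmem119, a microglia marker, at -0.83. The part of these cells in the Kcnk13 values was not tested.

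Kcnk12 ran from 4.83 through 7.67 to 9.86 CPM in controls and from 5.53 through 7.53 to 9.15 CPM in iKO. Both groups spanned nearly the whole range, and the log2 fold change was 0.07 (95% interval -0.29 to 0.42; edgeR adjusted p = 0.922). It was -0.03 with no covariate for sex. The female controls were the lowest of their group at 4.83 and 5.57 CPM, and the 4 male controls measured 6.44 to 9.86 CPM. In iKO, females at 5.53 to 7.89 CPM and males at 6.30 to 9.15 CPM overlapped.

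**Figure D2:**
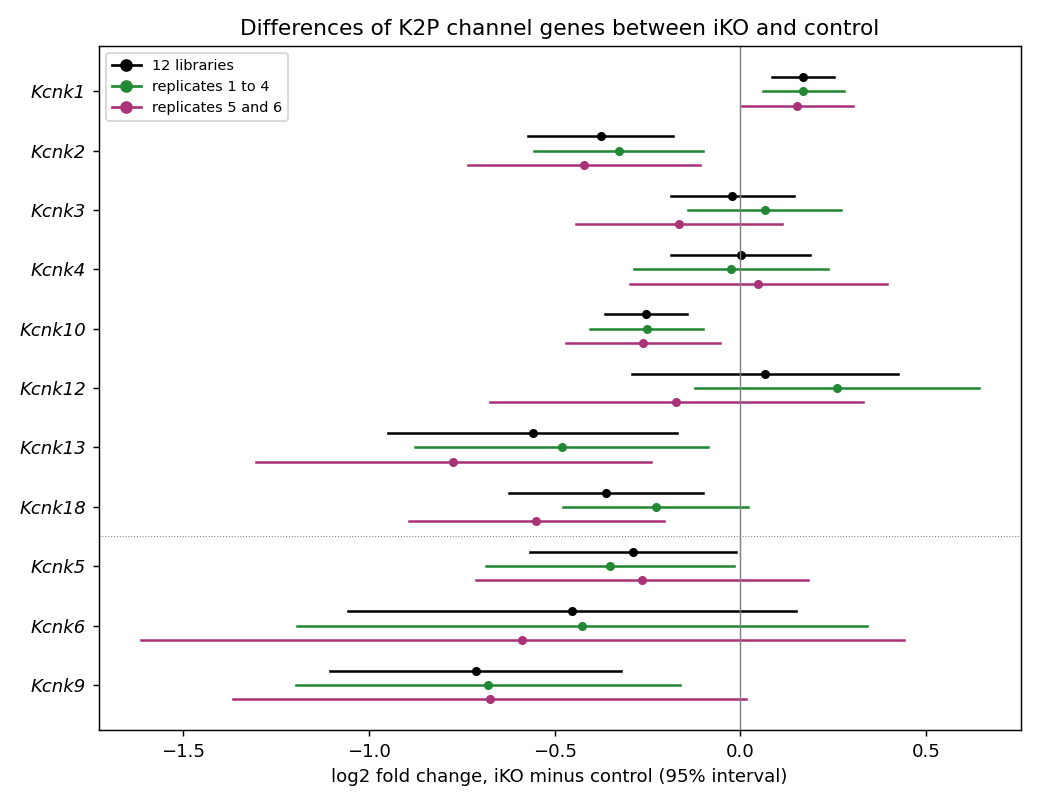
Log2 fold changes of iKO minus control (horizontal axis, points) with 95% intervals (lines) for the 8 listed K2P genes and, below the dotted line, the 3 other K2P genes tested, in all 12 libraries (black), replicates 1 to 4 (green) and replicates 5 and 6 (purple). The intervals of Kcnk1 lie above 0 and those of Kcnk2, Kcnk10 and Kcnk13 below it in all 3 comparisons, although no gene shown passed after adjustment. The 12 libraries are those of both replicate sets, so the comparisons are not independent.

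The controls were of different kinds, so the comparison was split. In replicates 1 to 4 every animal had tamoxifen and groups differed in genotype, while in replicates 5 and 6 all were males of the same genotype and groups differed in the injection. Kcnk1, Kcnk2, Kcnk10, Kcnk13 and Kcnk18 lay on the same side of 0 in both sets. They were picked by p over the libraries of both sets together, so a shared sign is partly built in. In replicates 1 to 4 the log2 fold changes were 0.17 for Kcnk1, -0.33 for Kcnk2, -0.25 for Kcnk10, -0.48 for Kcnk13 and -0.23 for Kcnk18. In replicates 5 and 6 they were 0.15, -0.42, -0.26, -0.77 and -0.55 in the same order.

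After the filter on low counts, no member passed in either set in edgeR, DESeq2 or limma-voom, beside 0.114% and 0.00601% of all genes called in edgeR. Prdm12, the deleted gene, was called in replicates 1 to 4 (log2 fold change -2.67; edgeR adjusted p = 0.00115). In replicates 5 and 6 even Prdm12 was not called (-2.49; edgeR adjusted p = 0.0509). The absence of calls in that set therefore says little about the members. With no filter, edgeR called Kcnk13 (adjusted p = 0.00995) and Kcnk18 (adjusted p = 0.00953) in replicates 5 and 6, where it then called 1014 genes in place of 1. At an unadjusted p under 0.05 there were 4 members in replicates 1 to 4 (all of the 5 but Kcnk18), against 7.93% of genes, and 5 in replicates 5 and 6, against 7.87%. Kcnk1 measured 117 ± 4.87 CPM in control and 132 ± 2.88 CPM in iKO of the first set (n = 4 each), and 121 ± 5.11 and 134 ± 0.18 CPM in the second (n = 2 each). Kcnk18 measured 25.3 ± 3.04 and 20.9 ± 2.96 CPM in the first set and 23.9 ± 4.56 and 16.3 ± 0.87 CPM in the second. The difference between the sets was not called for any member in edgeR, DESeq2 or limma-voom. No member had an unadjusted p under 0.05 there, against 3.41% of genes. The widest differences between sets were -0.43 for Kcnk12 (edgeR adjusted p = 1.00) and -0.32 for Kcnk18 (edgeR adjusted p = 1.00).

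Males and females were compared over 12 libraries with group as a covariate. No member passed in edgeR, DESeq2 or limma-voom, where 0.108% of genes did in edgeR. Only Kcnk12 had an unadjusted p under 0.05, against 10.2% of genes, with a log2 difference of 0.38 (male minus female, 95% interval 0.01 to 0.74; edgeR adjusted p = 0.482). It measured 8.17 ± 1.46 CPM in 7 males and 6.32 ± 1.41 CPM in 5 females. The effect of iKO did not pass as different between the sexes for any member in edgeR, DESeq2 or limma-voom, and none had an unadjusted p under 0.05, against 1.91% of genes. Kcnk12 came nearest, with a log2 difference of the effect of -0.63 ± 0.297 (SE; unadjusted p = 0.0558, edgeR adjusted p = 1.00).

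Levels of different genes were compared per kilobase of exon, with lengths from GENCODE M21. Kcnk1 stood far above the rest, at 52.7 ± 2.17 CPM per kb in controls, 7.37 times Kcnk18 at 7.15 ± 0.92. Kcnk2 followed at 5.41 ± 0.62 CPM per kb, and these 3 kept their order in all 12 libraries. Below them came Kcnk3 at 3.94 ± 0.34, Kcnk12 at 3.79 ± 1.07, Kcnk13 at 3.67 ± 1.01, Kcnk4 at 2.51 ± 0.28 and Kcnk10 at 2.15 ± 0.14 CPM per kb. The order below Kcnk1 depends on the lengths, which join all annotated exons of a gene (8.77 kb for Kcnk10, 1.97 kb for Kcnk12). Before division by length, Kcnk10 measured 18.9 CPM and Kcnk12 7.47 CPM in controls. Kcnk3, Kcnk12 and Kcnk13 were not separable in controls, with 3 of 6 libraries in that order for each neighbouring pair. In iKO, Kcnk13 at 2.46 ± 0.37 CPM per kb stood level with Kcnk4 at 2.46 ± 0.23, and Kcnk12 was above Kcnk13 in 6 of 6 libraries. The ratio of Kcnk1 to Kcnk18 was 10.6 in iKO.

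**Figure D3:**
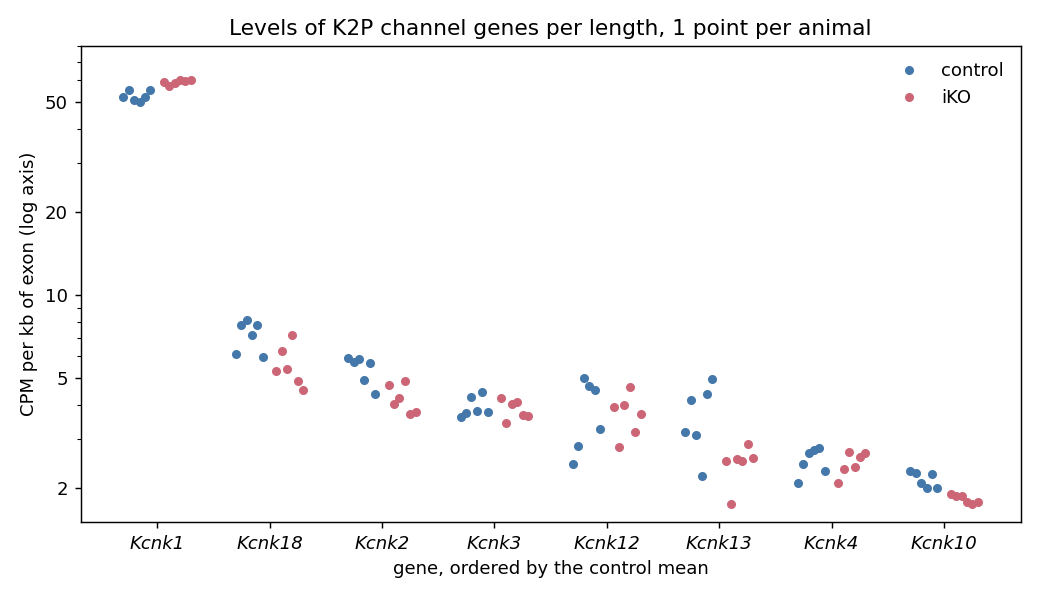
CPM per kilobase of exon (logarithmic vertical axis) of the 8 K2P genes in order of their control mean, with 1 point per animal, blue for control and red for iKO. Kcnk1 sits between 50.3 and 60.4 CPM per kb, and every other gene at 8.11 or below.

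As a share of all reads in the 8 members, Kcnk1 made up 50.4% ± 2.29 (SD, n = 6) in controls and 57.6% ± 1.53 in iKO. The summed level of the 8 genes was 223 to 244 CPM in controls and 221 to 243 CPM in iKO, so the ranges nearly coincided. The shares of Kcnk2 were 11.4% and 9.06%, of Kcnk18 10.6% and 8.40%, of Kcnk10 8.06% and 6.97% and of Kcnk13 4.86% and 3.33%. Shares add up to the whole, so a higher share of Kcnk1 and lower shares of others are not independent.

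Of 6 further K2P genes, Kcnk5, Kcnk6 and Kcnk9 passed the filter and none of them the threshold in edgeR or limma-voom. Kcnk5 and Kcnk9 were lower with an unadjusted p under 0.05, against 6.00% of all genes. Kcnk9 encodes TASK3, a partner of TASK1 in mixed channels. It ran from 7.10 through 10.4 to 13.6 CPM in controls and from 4.85 through 5.88 to 9.03 CPM in iKO, with 4 of 6 iKO libraries below every control. Its log2 fold change was -0.71 ± 0.18 (95% interval -1.10 to -0.32; edgeR adjusted p = 0.12), and of 21 alternatives only DESeq2 called it (adjusted p = 0.0142), with the others up to 0.258. For Kcnk5, which encodes the alkaline-activated TASK2, the groups overlapped, with a log2 difference of -0.29 (edgeR adjusted p = 0.438). Kcnk6 had one of -0.45 (edgeR adjusted p = 0.6), which was 0.08 without controls 2 and 6, at 3.82 and 4 CPM its highest libraries. Kcnk7, Kcnk15 and Kcnk16 held 0 to 5 counts in each library, near the 3 counts taken as the limit of a count of 0, and were not tested.

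Genes that act on K2P channels came next. None of 27 partners and regulators passed in edgeR, DESeq2 or limma-voom, and their median log2 fold change was -0.01. At an unadjusted p under 0.05, 2 were higher and 2 lower, against 4.90% and 6.00% of all genes. Of the 27, those with the smallest p were Mark2 (-0.17), a kinase that phosphorylates TRESK, and Sort1 (-0.28), the sortilin receptor that binds TREK1. The calcineurin genes Ppp3ca, Ppp3cb, Ppp3cc and Ppp3r1 lay between -0.02 and 0.01. Of 22 other genes of resting conductances (inward rectifiers, the NALCN sodium leak complex and HCN channels) 21 were tested and none passed in edgeR, DESeq2 or limma-voom. Among these 1 had an unadjusted p under 0.05, against 10.9% of all genes. It was Kcnj9 (-0.44), a G protein-gated potassium channel, and next by p came Kcnj10 (-0.41), the potassium channel of satellite glia.

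**Figure D4:**
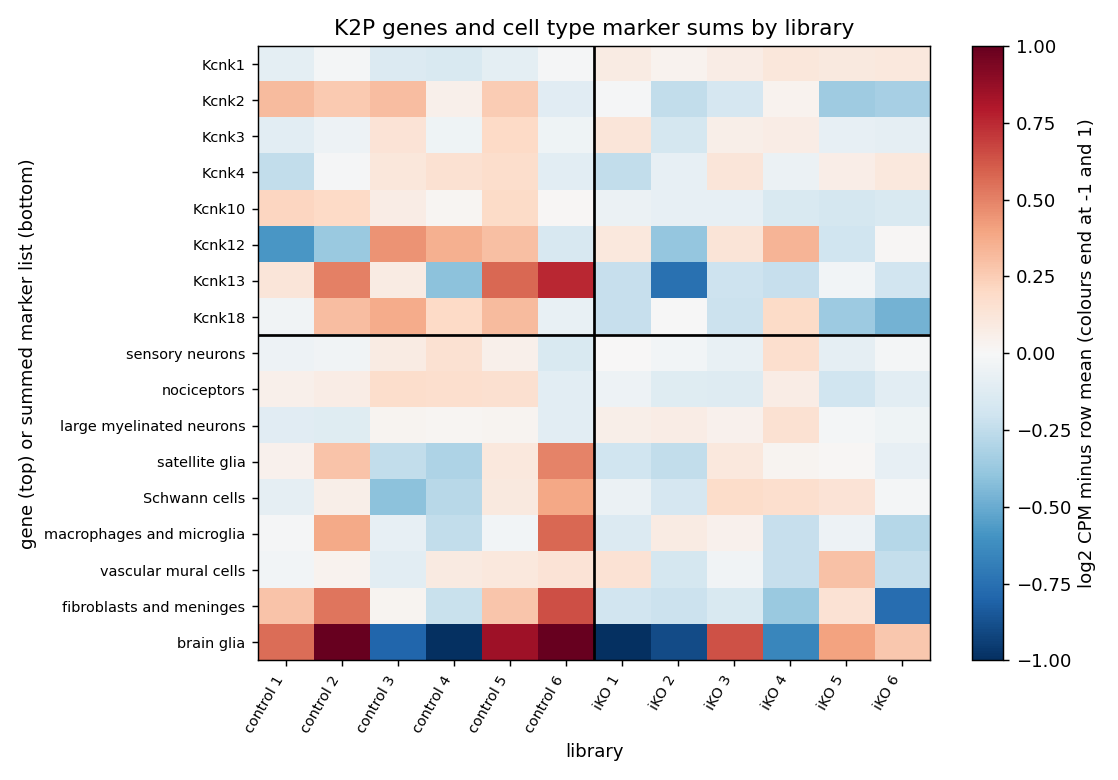
Log2 CPM minus the mean of each row (colour, ending at -1 and 1) for the 8 K2P genes (top) and the summed CPM of 9 marker lists (bottom) in the 12 libraries. Kcnk1 is below its mean in every control and above it in every iKO library, and brain glia markers, from -1.98 in control 4 to 2.19 in control 6, span a wider range than any K2P gene.

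Markers of other cells were summed in each library. Brain glia markers summed to 139 to 2494 CPM in controls and 144 to 852 CPM in iKO, and markers of fibroblasts and meninges to 1940 to 3534 and 1331 to 2496 CPM. Of the 8 genes of that last list 2 were called lower in edgeR, Slc22a6 (-1.10) and Slc13a4 (-0.95). Of 8 Schwann cell genes 1 was called higher, Pmp22 (0.36), where edgeR called 0.379% of all genes. DESeq2, which called 2.04% of genes, called 4 lower in the first list and 4 higher in the second. With limma-voom only Slc13a4 and Pmp22 were called. Among the Schwann cell genes Mag (-0.62) and Mbp (-0.21) had log2 fold changes below 0 and were not called by any of these tools. Satellite glia markers summed to 4536 to 7892 CPM in controls and 4724 to 6020 CPM in iKO. The 4 libraries lowest in brain glia markers came from both groups. In controls 3 and 4, with brain glia sums of 317 and 139 CPM, Kcnk1 measured 114 and 112 CPM and Kcnk10 18.3 and 17.6 CPM. In iKO 1 and iKO 2, with sums of 144 and 295 CPM, Kcnk1 measured 132 and 128 CPM and Kcnk10 16.7 and 16.4 CPM. The groups did not overlap for these genes over all 12 libraries, so they stand apart in any libraries picked. The part of these cells in the values of the members was not tested.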

How the data were processed

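Libraries were prepared from polyadenylated RNA with TruSeq chemistry that keeps no strand, per the labels' protocols. The authors deposited raw counts per Ensembl gene, 1 file for each library. Per the submitters' processing notes, the build was GRCm39 and the tools were featureCounts 2.0.1, STAR 2.7.8a and bcl2fastq 2.20.0.422. The annotation and the counting options were not given in the sources used here. Gene symbols matched 52083 of 55416 identifiers.

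The main test was edgeR (4.0.16, R 4.3.3) by quasi-likelihood with sex as a covariate, after filterByExpr by group and TMM scaling (factors 0.969 to 1.02). P-values were adjusted by Benjamini-Hochberg over all 16637 genes, with a threshold of 0.05. Each SE is the log2 fold change divided by the root of its F statistic. Replicate sets were contrasts in 1 fit over 12 libraries, and the sex difference of the effect was an interaction. DESeq2 (1.42.0) and limma-voom (limma 3.58.1) were alternatives, beside other filters and scalings, samples left out and other covariates. The labels name no litter or day, so p-values measure only the spread between these samples. The scripts were tested on simulated counts. Pairs of libraries within a group differed by 7.63 to 29.4 in chi-square per degree of freedom, so none was counted as a repeat. A count of 0 allows up to 3 counts, or 0.124 CPM in the deepest and 0.227 CPM in the shallowest library, for counting error only.

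The members and gene lists were chosen with earlier results of these data known. Named genes are the 8 members, the other K2P genes, Prdm12, in each list the genes past the threshold or else the 2 of smallest p, and the 3 most like Kcnk18 by Pearson r of log2(CPM + 1). Any other gene was chosen after its values were seen. The result of 1 marker gene is not reported here.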

Additional observations from a re-analysis of the deposited data

Results flagged for a closer look

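Kcnk13 measured 5.45 CPM in iKO 2, from 72 counts, far below the other 5 iKO libraries at 7.77 to 8.96 CPM. It was the only far value among 22 groups of 6 libraries examined (the 8 members, Kcnk5, Kcnk6 and Kcnk9 in each group), where chance gives about 1 in 20.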

How the results depend on the processing

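Kcnk1, Kcnk2, Kcnk10, Kcnk13 and Kcnk18 kept their sign over 12 libraries in all 105 values from 21 alternatives each. These members were picked by p over the same libraries, and the alternatives reuse all or most of those libraries. A kept sign is therefore largely built in and adds no evidence. Members called over 12 libraries numbered 0 in edgeR, 1 with a mean of at least 1 CPM, 3 with DESeq2 and 0 to 2 when 1 library was left out. Genes called there numbered 63, against 138 with no filter, 332 with DESeq2, 28 in tamoxifen-injected animals only and 23 to 88 without 1 library. Without controls 2 and 6, chosen after seeing the data, 36 genes were called. Log2 fold changes near 0 changed sign. Kcnk4 was -0.027 with no covariate, -0.015 with tamoxifen only, -0.014 without controls 2 and 6 and -0.044 to 0.031 without 1 library. Kcnk12 was -0.028 with no covariate, -0.051 without controls 2 and 6 and -0.031 to 0.17 without 1 library. Kcnk3 was 0.00090 with tamoxifen only and -0.053 to 0.0085 without 1 library, and Kcnk6 was 0.076 without controls 2 and 6. Between the sexes, 18 genes became 33 with no filter, 50 with DESeq2 and 11 to 15 without 1 library. There Kcnk18 was -0.019 in limma-voom and -0.092 to 0.074 without 1 library, and Kcnk1 was -0.0096 to 0.026.

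In replicates 1 to 4, 19 genes became 621 with no filter, 137 with DESeq2, 12 with those 8 libraries alone and 2 to 18 without 1 library, and Kcnk4 ran from -0.11 to 0.066. In replicates 5 and 6, 1 gene became 2 with size factors, 1014 with no filter, 70 with DESeq2 and 1 to 26 without 1 library. Leaving out 1 library there moved Kcnk12 from -0.39 to 0.065 and Kcnk4 from -0.093 to 0.19. With no filter, 2 members were called there, Kcnk13 (-0.77; edgeR adjusted p = 0.00995) and Kcnk18 (-0.54; edgeR adjusted p = 0.00953). For the difference between the sets, 0 genes became 578 with no filter, 5 with DESeq2 and 0 to 15 without 1 library. Where 1 sample was left in a group, it was assumed to vary like the others. The cause of these moves was not tested.

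Pairing by replicate number was checked by comparing each control with the iKO libraries. Same-numbered deviations correlated at -0.40 to 0.35, and no control was most like the iKO library of its own number. The check did not show pairing, but it cannot show that pairing is absent. With the replicate block in place of sex, 34 genes were called over 12 libraries, 2 in replicates 1 to 4 and 0 in replicates 5 and 6, and no member. Kcnk4 was -0.026 and Kcnk12 was -0.0052 under the block. At 72 to 328 counts for Kcnk13 and 69 to 187 for Kcnk12, depth limits these genes more than Kcnk1, at 1669 to 3316.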
